A study of Sus scrofa with 95 samples.

Results

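The genes described here carry out fatty acid oxidation or are regulated by the nuclear receptor PPAR alpha. They were chosen by name, with earlier results of these data known. Of 38 symbols looked up in the deposited table of 35670 genes, 37 were found and are described. CD36, the fatty acid translocase, is not analysed here. The animals were infant pigs of 5 to 10 kg. Of these, 8 were anesthesia controls that received no drug, 7 underwent cardiopulmonary bypass with deep hypothermic circulatory arrest (CPB) and no drug, and 4 underwent the same bypass and arrest and received 75 mg of linrodostat, an inhibitor of the kynurenine pathway enzyme IDO1. The arrest lasted 75 min in both bypass arms. Poly(A) RNA was sequenced from left ventricle, liver, kidney cortex, right lower lung lobe and terminal ileum of each of the 19 animals. The breed, the age in days and the interval between bypass and tissue collection are not given in the sources used here. Kidney and ileum were removed before euthanasia with pentobarbital, and liver, heart and lung after it.

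Long-chain fatty acids enter cells with the help of transport and lipoprotein receptor proteins, are joined to coenzyme A by acyl-CoA synthetases and cross into mitochondria as carnitine esters. CPT1 makes the carnitine ester at the outer membrane, the carrier SLC25A20 moves it across the inner membrane and CPT2 turns it back into acyl-CoA, which the beta-oxidation enzymes then shorten. PPAR alpha, active in liver, heart and kidney, binds fatty acid ligands and raises transcription of many of these genes, together with PDK4, which turns pyruvate away from oxidation, ANGPTL4, an inhibitor of lipoprotein lipase, and, in liver, the hormone FGF21. The heart draws most of its fuel from fatty acids, and the liver uses the pathway for energy and for ketone bodies.

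Total counts per library ran from 20 to 53.6 with a median of 35.1, in units of 1e6 counts. The markers of cardiomyocytes, hepatocytes, proximal tubule, alveolar type 2 cells and enterocytes were present in every library of the organ they define. Some listed markers are not confined to the named cells, such as MTTP among enterocyte, DES among smooth muscle and AQP1 among proximal tubule markers. UMOD, also in the proximal tubule list, is a gene of another tubule segment. All heart libraries carry batch label 2 and all others batch label 1, so heart and batch cannot be told apart between organs, while the arms of any 1 organ share a batch label. Levels are given as CPM, counts scaled to a library of 1e6 counts within an organ, and the lowest, median and highest animal are named for the larger arms. Fold changes are log2 values ± standard error from edgeR's quasi-likelihood test, and a gene passed at a Benjamini-Hochberg adjusted p under 0.05 over all genes tested in that organ. In bulk tissue, fewer cells of a type and less RNA per cell cannot be told apart.

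In control animals the members differed in where they were highest, often with overlap between organs. Scaled over all 95 libraries, the median was highest in liver for 19 members, in heart for 13, in kidney for 2, in ileum for 2 and in lung for 1. All animals lay above those of the second organ for 7 of the 19 liver and 9 of the 13 heart members. In kidney, ileum and lung this held for 0 members. Heart and liver levels differed for 27 of 37 members by edgeR (11 higher and 16 lower in heart), where 71.9% of all genes differed, 35.1% higher and 36.8% lower in heart. The muscle form of the carnitine transferase, CPT1B, had a median of 553 CPM in control heart and 3.53 CPM in control liver, a log2 difference of 7.39 ± 0.25 (edgeR adjusted p = 6e-25). The liver form, CPT1A, stood the other way round, at a median of 34.8 CPM in heart and 166 CPM in liver (-2.23 ± 0.30, edgeR adjusted p = 3.74e-08), and its kidney median of 186 CPM overlapped that of liver.

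Of 11 mitochondrial beta-oxidation enzymes, 5 were higher in control heart than in control liver (ACADL, ACADVL, HADHA, HADHB and HADH), 4 were lower (ACADM, ACADS, ECI1 and DECR1), and ACAA2 and ECI2 did not pass. ACADVL, the very-long-chain acyl-CoA dehydrogenase, had medians of 1060 CPM in heart and 171 CPM in liver. HADHA, the alpha subunit of the trifunctional protein, had medians of 1280 and 367 CPM. In both cases the heart and liver animals did not overlap. EHHADH, the bifunctional enzyme of peroxisomal beta-oxidation, was a liver gene by contrast, with medians of 450 CPM in liver and 23.3 CPM in heart (log2 difference -4.18 ± 0.16, edgeR adjusted p = 1.66e-23). CREB3L3, a liver transcription factor that works with PPAR alpha, and FGF21 had medians of 0.486 and 0.348 CPM in heart, against 631 and 26.9 CPM in liver.

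After CPB, EHHADH, SLC25A20, ACSL1, CPT1B, CPT2, VLDLR, ACADS and ANGPTL4 fell in the left ventricle. Of 36 members tested in heart, 8 fell and 0 rose, that is 22.2% of members against 11.9% of all genes, with 6.39% higher and 5.53% lower. The members' median log2 fold change was -0.19, against -0.02 over the 14890 genes tested. The genes that fell were 5 of 9 uptake, activation and carnitine shuttle genes, 1 of 11 mitochondrial beta-oxidation enzymes, 1 of 3 peroxisomal enzymes and 1 of 6 of the signals, droplet coats and uncoupling proteins. None of the 3 electron transfer genes and none of the 3 receptors and transcription factors passed.

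EHHADH (ENSSSCG00000040296, chr13:123104085-123162119 in Sscrofa11.1) showed the clearest separation. Control hearts held 12, 16.3 and 23.4 CPM (lowest, median and highest), CPB hearts 4.87, 6.41 and 11.2 CPM, and the linrodostat hearts 9.34, 7.36, 11.3 and 9.26 CPM. Every heart of both bypass arms lay below every control heart. The log2 fold change after CPB was -1.15 ± 0.18 (edgeR adjusted p = 0.000356). Among members it was the only one whose CPB and control hearts did not overlap, where 2.36% of all genes had such a separation. Between linrodostat and control hearts 3.35% of all genes had one.

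The carnitine shuttle was lower after CPB at SLC25A20, CPT1B and CPT2. SLC25A20, the carnitine-acylcarnitine carrier (chr13:31523820-31553289), held 25.7, 39.9 and 64.4 CPM in controls and 9.44, 18.6 and 35.8 CPM after CPB, and the linrodostat hearts held 29.3, 34.5, 29 and 22.3 CPM. Only the lowest control, animal 15, and the highest CPB heart, animal 9, made the arms overlap, and the fold change was -1.06 ± 0.21 (edgeR adjusted p = 0.003). CPT1B (chr5:155552-163536) held 327, 377 and 523 CPM in controls and 170, 248 and 401 CPM after CPB (-0.66 ± 0.15, edgeR adjusted p = 0.00773). Its linrodostat hearts lay close together, at 283, 282, 279 and 290 CPM, below every control heart. CPT2 held 16.9, 25.7 and 43.3 CPM in controls and 12, 16.2 and 25.4 CPM after CPB (-0.72 ± 0.19, edgeR adjusted p = 0.0165), with linrodostat hearts at 18.2, 20.8, 17.4 and 20.6 CPM. CPT1A, the minor form in heart, had 24.6 CPM in the median control and 22 CPM after CPB, with overlapping arms, and did not pass (-0.47 ± 0.30, edgeR adjusted p = 0.322).

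The enzyme that feeds the shuttle moved the same way. ACSL1, the main long-chain acyl-CoA synthetase of heart, held 282, 486 and 567 CPM in controls and 136, 224 and 365 CPM after CPB (-0.86 ± 0.22, edgeR adjusted p = 0.0135), with linrodostat hearts at 221, 295, 367 and 355 CPM. VLDLR, the receptor for very low density lipoprotein, held 117, 135 and 160 CPM in controls and 85.7, 100 and 120 CPM after CPB (-0.44 ± 0.11, edgeR adjusted p = 0.014). Its linrodostat hearts, at 96.1, 112, 127 and 155 CPM, reached into the control range. Inside the beta-oxidation cycle, ACADS, the short-chain acyl-CoA dehydrogenase, held 71.2, 93.8 and 120 CPM in controls and 53.4, 63.9 and 81.9 CPM after CPB (-0.49 ± 0.11, edgeR adjusted p = 0.0079), with linrodostat hearts at 66.4, 83, 64.3 and 72 CPM. The other 10 enzymes of the cycle did not pass, and the 11 had a median fold change of -0.22.

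**Figure D1:**
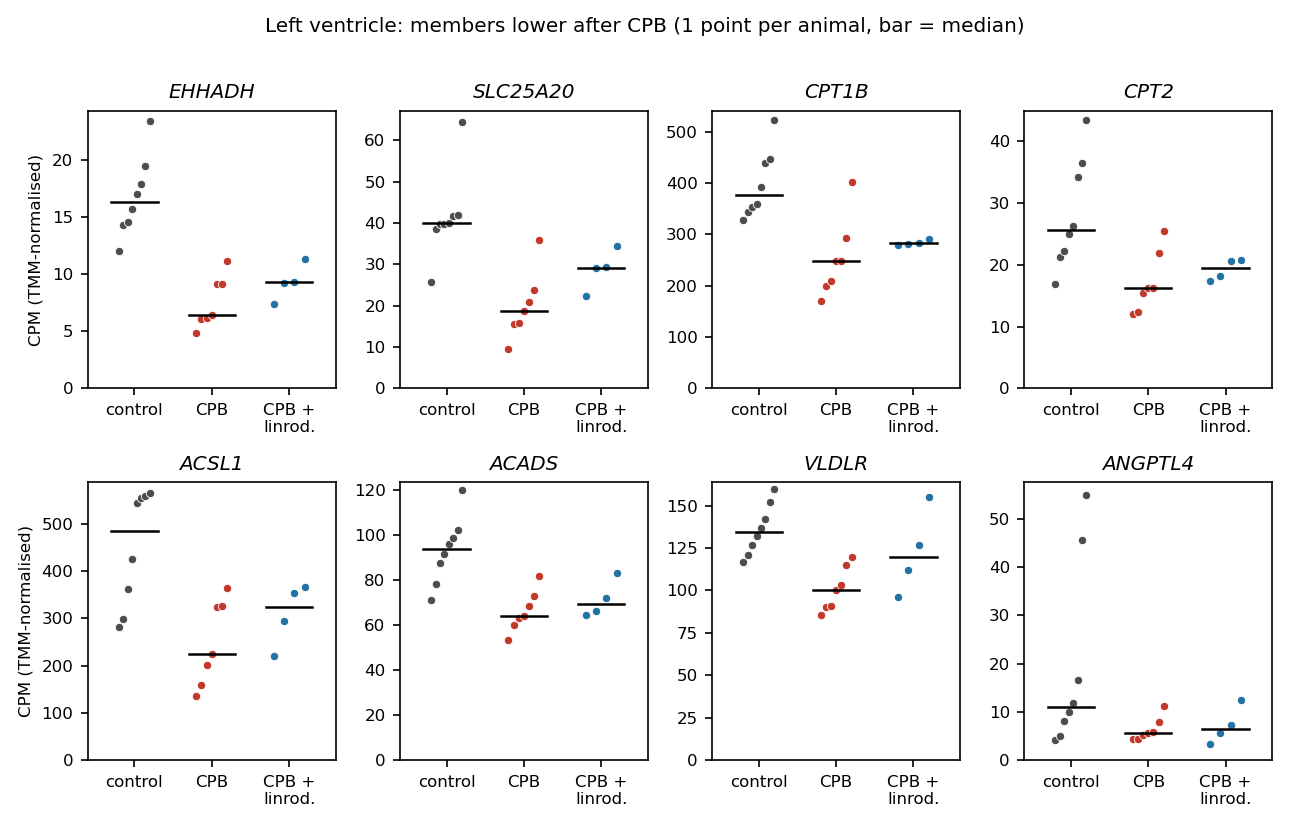
Levels of 8 members in left ventricle, in CPM on linear axes from 0, with 1 point per animal for 8 controls, 7 CPB and 4 linrodostat animals and a bar at the arm's median. For EHHADH every CPB heart (4.87 to 11.2 CPM) lies below every control heart (12 to 23.4 CPM), and for the other 7 members the CPB and control points overlap.

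Of the PPAR alpha targets outside the pathway, ANGPTL4 passed in heart and PDK4 and UCP3 did not. ANGPTL4 fell, from 4.18, 11 and 55 CPM in controls to 4.32, 5.58 and 11.3 CPM after CPB (-1.63 ± 0.52, edgeR adjusted p = 0.0471). Controls 4 and 7 held 55 and 45.6 CPM and the other controls at most 16.6 CPM. The call was lost in 15 of 25 alternatives, 11 of which left out 1 library (controls 1, 4, 7 and 14, CPB 2, 6, 11, 19 and 25, and linrodostat 18 and 24), with adjusted p values of 0.0509 to 0.097 and fold changes of -1.71 to -1.20. PDK4 (chr9:75246956-75260134), the kinase that shuts down pyruvate dehydrogenase, held 8.15, 141 and 379 CPM in controls and 52.5, 193 and 522 CPM after CPB. The arms overlapped over most of their range and it did not pass (0.77 ± 0.68, edgeR adjusted p = 0.488). UCP3, an uncoupling protein of muscle, ranged from 0.0666 to 6.57 CPM in controls and from 0.0856 to 7.03 CPM after CPB (0.81 ± 0.73, edgeR adjusted p = 0.5).

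The receptor PPARA itself held 30.3, 35.4 and 50.5 CPM in control hearts and 20.9, 52.2 and 108 CPM after CPB, and did not pass (0.55 ± 0.29, edgeR adjusted p = 0.215). PLIN2, which coats lipid droplets, held 9.63, 21.1 and 41.2 CPM in controls and 15.8, 24.4 and 39.5 CPM after CPB (0.23 ± 0.24, edgeR adjusted p = 0.571). The linrodostat hearts, at 13.1, 10.7, 13.2 and 10.5 CPM, all lay below every CPB heart. FGF21 was not tested in heart, with at most 0.613 CPM in any control. Over the 7 CPB hearts, FGF21 had 12 counts in all and CREB3L3 had 10, with 4 and 5 libraries at 0.

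The summed cardiomyocyte markers ran from 88200 to 109000 CPM in controls and from 61200 to 110000 CPM after CPB, and 1 of 8 passed, higher. Of 6 smooth muscle markers 3 rose, with sums of 3870 to 5760 CPM in controls and 4220 to 8940 CPM after CPB. That list includes DES, also a cardiomyocyte gene, so its sum in heart does not stand for smooth muscle alone. Of 8 macrophage markers 1 rose, of 3 proximal tubule markers 1 rose and of 2 alveolar type 2 markers 1 fell. Of 6 fat cell markers 1 fell, and their sums were 243 to 507 CPM in controls and 260 to 342 CPM after CPB. The part of these cells in the falls of the members was not tested.

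Other genes of fatty acid metabolism, from a list of 98 of which 76 were tested in heart, fell in 10 cases and rose in 4. Of 12 transport and activation genes among them, 2 rose and 1 fell: the acyl-CoA synthetase ACSL4 stood at 0.74 ± 0.15 (edgeR adjusted p = 0.00278), lipoprotein lipase (LPL) at 0.64 ± 0.19 (0.0327) and the acetyl-CoA synthetase ACSS1 at -0.82 ± 0.21 (0.014). These 3 were named after their values were seen. MLYCD, the malonyl-CoA decarboxylase whose activity relieves the block on CPT1, held 31.4, 74.8 and 105 CPM in controls and 5.22, 14.6 and 50.6 CPM after CPB (-1.77 ± 0.41, edgeR adjusted p = 0.00866). The hormone-sensitive lipase LIPE held 13.7, 15.9 and 62.8 CPM in controls and 3.59, 7.17 and 19.1 CPM after CPB (-1.48 ± 0.42, edgeR adjusted p = 0.0266). LIPE is also 1 of the fat cell markers. RXRG, a muscle-rich partner of PPAR receptors, went from a median of 38.1 to 18.3 CPM (-1.07 ± 0.20, edgeR adjusted p = 0.00169). ABHD5, the activator of the droplet lipase ATGL, rose from a median of 8.32 to 14.3 CPM (1.24 ± 0.32, edgeR adjusted p = 0.0149), with CPB hearts from 6.11 to 49.3 CPM.

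In the liver, CPT1A and the receptor PPARD rose after CPB, while the hormone FGF21 fell. Of 36 members tested, 3 rose and 4 fell, 19.4% in all, where 26.9% of all genes passed (15.6% higher and 11.3% lower), so the share of members was not above that of all genes. The median log2 fold change was 0.03, against -0.03 over all 15406 genes. No peroxisomal enzyme (0 of 3), electron transfer gene (0 of 3) or ketone body enzyme (0 of 1) passed, and 1 of 11 mitochondrial enzymes did, higher.

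CPT1A (ENSSSCG00000012880, chr2:4250642-4293914), the rate-controlling step of hepatic oxidation, held 44.5, 91.1 and 217 CPM in control livers and 169, 226 and 360 CPM after CPB. Control 7 alone, at 217 CPM, lay inside the CPB range. The fold change was 1.07 ± 0.28 (edgeR adjusted p = 0.00987). The linrodostat livers held 167, 241, 258 and 364 CPM. CPT1B, at 1.08 to 3.03 CPM in control livers, fell to 0.54 to 1.66 CPM (-0.97 ± 0.27, edgeR adjusted p = 0.0128), and its linrodostat livers held 2.34, 1.75, 1.39 and 1.25 CPM. VLDLR fell as in heart, from 7.5, 8.91 and 12.6 CPM to 3.8, 5.43 and 8.73 CPM (-0.67 ± 0.17, edgeR adjusted p = 0.00663).

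PPARD, the delta member of the PPAR family (chr7:31222533-31295221), held 13.6, 15.5 and 25.2 CPM in controls and 17.6, 33.5 and 45.7 CPM after CPB (0.94 ± 0.21, edgeR adjusted p = 0.00384), with linrodostat livers at 41.8, 24.8, 31.5 and 22.2 CPM. PPARA held 12, 30.9 and 52.8 CPM in controls and 27.8, 43.5 and 51.6 CPM after CPB, inside the control range, and did not pass (0.38 ± 0.24, edgeR adjusted p = 0.244). CREB3L3 held 248, 351 and 489 CPM in controls and 156, 237 and 419 CPM after CPB (-0.48 ± 0.21, edgeR adjusted p = 0.101).

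FGF21 (chr6:54082653-54084532), a hepatic hormone of fasting and a classical PPAR alpha target, had the largest fall among liver members. Controls held 2.7, 14.9 and 39.8 CPM and CPB livers 0.335, 2.18 and 7.16 CPM, a fold change of -2.42 ± 0.71 (edgeR adjusted p = 0.0182). Controls 4, 14 and 15, at 2.7, 3.36 and 5.85 CPM, lay within the CPB range and the other 5 above it. The linrodostat livers held 0.508, 2.58, 11.1 and 2.37 CPM.

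2 further members passed in liver only narrowly. ECI2, an enoyl-CoA isomerase of peroxisomes and mitochondria, held 119, 184 and 246 CPM in controls and 130, 283 and 362 CPM after CPB (0.63 ± 0.22, edgeR adjusted p = 0.039). UCP2 held 10.7, 17.4 and 21 CPM in controls and 6.93, 10.6 and 18.5 CPM after CPB (-0.58 ± 0.20, edgeR adjusted p = 0.0423). Each call was lost in 11 of 25 alternatives. Leaving out 1 library ended the ECI2 call for controls 1, 4, 10, 14 and 26 and CPB 2, 11, 19 and 25 (adjusted p 0.0517 to 0.0903). It ended the UCP2 call for controls 1, 4, 13, 15 and 26, CPB 2, 6, 11, 21 and 25 and linrodostat 20 (adjusted p 0.052 to 0.0927).

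The other PPAR alpha targets of liver did not pass, and their arms overlapped. PDK4 held 2.68, 33.8 and 144 CPM in controls and 2.93, 22.9 and 273 CPM after CPB (0.74 ± 1.00, edgeR adjusted p = 0.614). Its sign depended on the tool, at -0.37 with limma-voom. ANGPTL4 held 10.5, 43.6 and 166 CPM in controls and 27.2, 66.8 and 124 CPM after CPB (0.43 ± 0.50, edgeR adjusted p = 0.553). PLIN2 held 117, 154 and 357 CPM in controls and 95, 318 and 396 CPM after CPB (0.52 ± 0.32, edgeR adjusted p = 0.242). UCP3 was not tested in liver because of its low counts.

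**Figure D2:**
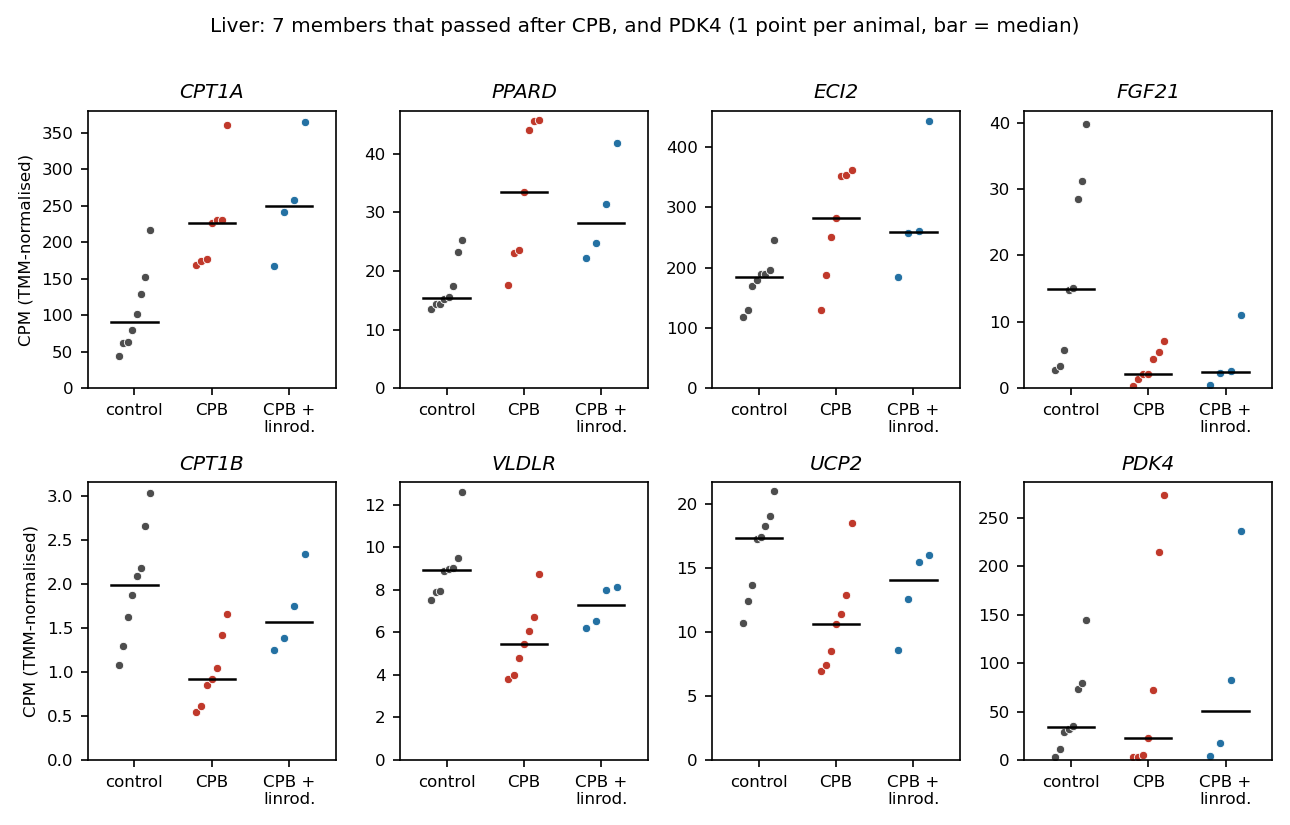
Levels in liver of the 7 members that passed between CPB and control, and of PDK4, in CPM on linear axes from 0, with 1 point per animal (8 controls, 7 CPB, 4 linrodostat) and a bar at each arm's median. CPT1A lies at 169 to 360 CPM after CPB against 44.5 to 217 CPM in controls, and PDK4 spans 2.93 to 273 CPM within the CPB arm alone.

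Of the other fatty acid metabolism genes tested in liver, 7 of 83 rose and 11 fell. The droplet coats moved apart, with PLIN1 lower (6.39 to 2.33 CPM in the medians, -1.39 ± 0.29, edgeR adjusted p = 0.00208) and PLIN4 higher (5.71 to 11.9 CPM, 1.27 ± 0.38, edgeR adjusted p = 0.0203). PPARGC1A, the coactivator PGC-1 alpha, rose from a median of 9.14 to 22.4 CPM (1.18 ± 0.43, edgeR adjusted p = 0.048). CYP4A21, a cytochrome P450 gene whose action on fatty acids is not shown here, fell from 227 to 98.1 CPM (-1.34 ± 0.42, edgeR adjusted p = 0.0237). It belongs to a family of similar genes, among which the counting could split reads. Of 8 macrophage markers 4 fell, with sums of 435 to 834 CPM in control and 306 to 610 CPM in CPB livers. Of 8 hepatocyte markers none passed, and their sums were 78300 to 118000 CPM in controls and 100000 to 117000 CPM after CPB. Of 6 fat cell markers, which include PLIN1 and PLIN4, 1 rose and 2 fell. Of 8 endothelial markers 2 fell, of 4 alveolar type 2 markers 2 fell and of 7 enterocyte markers 1 rose. The part of these cells in the changes was not tested.

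In kidney cortex, the droplet coat PLIN2 rose, while PPARA, VLDLR, PLIN5, SLC25A20, BDH1 and CPT1B fell. Of 37 members tested, 1 rose and 6 fell, 18.9% in all, where 21.1% of all genes passed. The share of members was thus near that of all genes, and 16.2% of members fell against 9.86% of all genes, and 2.7% rose against 11.3%. PLIN2 (chr1:203683867-203709277) held 27.9, 37.4 and 58.1 CPM in controls and 68, 112 and 154 CPM after CPB (1.57 ± 0.25, edgeR adjusted p = 0.000301). Every CPB kidney lay above every control kidney, a separation that 3.89% of all genes had in either direction, and the linrodostat kidneys held 171, 204, 199 and 56 CPM. PPARA (ENSSSCG00000000006, chr5:3302755-3321091) held 14.1, 34.6 and 45 CPM in controls and 6.37, 15.8 and 29.9 CPM after CPB (-1.11 ± 0.31, edgeR adjusted p = 0.0168), with linrodostat kidneys at 14.8, 5.16, 13.8 and 21.9 CPM. Control 15, at 14.1 CPM, was the only control under 27.9 CPM.

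VLDLR fell again in kidney, from 27.7, 38.1 and 52.3 CPM to 17.6, 20.1 and 29 CPM (-0.85 ± 0.13, edgeR adjusted p = 0.000312), and the linrodostat kidneys, at 19.5, 18, 15.8 and 22.4 CPM, all lay below every control, where 9.85% of all genes did not overlap between these arms. The droplet coat PLIN5, which ties droplets to mitochondria, had medians of 28.3 CPM in controls and 18.8 CPM after CPB (-0.78 ± 0.25, edgeR adjusted p = 0.0323). SLC25A20 had medians of 25.5 and 15.5 CPM (-0.63 ± 0.21, edgeR adjusted p = 0.0339). BDH1, which interconverts the ketone bodies, had medians of 26.9 and 16.9 CPM (-0.87 ± 0.29, edgeR adjusted p = 0.0378). CPT1B had medians of 15.2 and 10.6 CPM (-0.57 ± 0.19, edgeR adjusted p = 0.0403) and is named here after its values were seen.

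The falls of PLIN5, SLC25A20, BDH1 and CPT1B in kidney had adjusted p values close to the threshold. Leaving out 1 library ended the call of PLIN5 for CPB 2, 9, 19 and 21 and controls 7 and 13 (adjusted p 0.0526 to 0.0614), of SLC25A20 for CPB 2, 6, 19 and 25 and controls 4 and 7 (0.0517 to 0.0695), of BDH1 for CPB 2 and 25 and controls 4, 13 and 14 (0.0515 to 0.0617), and of CPT1B for CPB 6, 11, 19, 21 and 25 and controls 7, 10, 14 and 15 (0.0509 to 0.0797). The count of passing members went from 7 to 4 without CPB 2, 19 or 25.

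**Figure D3:**
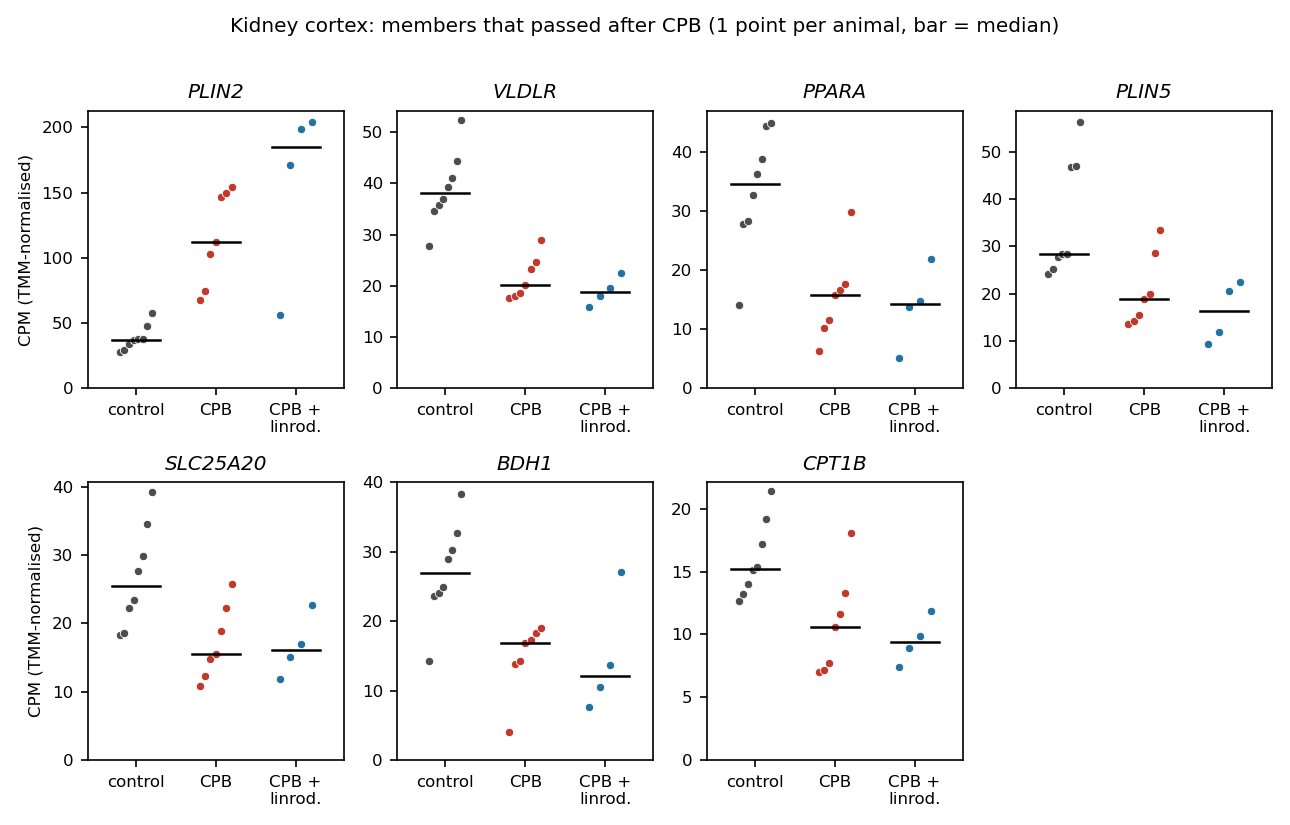
Levels in kidney cortex of the 7 members that passed between CPB and control, in CPM on linear axes from 0, with 1 point per animal (8 controls, 7 CPB, 4 linrodostat) and a bar at each arm's median. All 7 CPB points for PLIN2 (68 to 154 CPM) lie above the 8 controls (27.9 to 58.1 CPM), and for the other 6 members the arms overlap.

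Markers of other cell types moved with the kidney arms. Of 8 macrophage markers 4 fell (sums of 144 to 1210 CPM in controls, control 15 the highest, and 129 to 287 CPM after CPB), of 7 fat cell markers 3 fell (56.9 to 297 CPM, control 26 the highest, and 53.2 to 90 CPM) and of 6 smooth muscle markers 4 fell (644 to 1560 and 252 to 812 CPM). Of 8 proximal tubule markers 1 fell, and their sums were 8410 to 14100 CPM in controls and 7630 to 10800 CPM after CPB. Of 8 endothelial markers 1 rose and 2 fell, and of 4 alveolar type 2 markers 1 rose and 1 fell. Of 5 enterocyte markers 1 rose, and of 7 cardiomyocyte markers 1 fell. Without controls 15 and 26, an alternative chosen after seeing the data, PLIN2 stood at 1.51 (edgeR adjusted p = 0.00197) and PPARA at -1.17 (0.0157), BDH1 no longer passed (0.0626), nor did CPT1B (0.0648), while HADHA passed (-0.50, edgeR adjusted p = 0.0447), and 6 members passed in place of 7. Of the other fatty acid metabolism genes tested in kidney, 5 of 84 rose and 16 fell. The largest fall was that of the fat cell coat PLIN1, from 0.49, 1.52 and 28.8 CPM in controls to 0.0733, 0.175 and 0.509 CPM after CPB (-5.06 ± 0.97, edgeR adjusted p = 0.00162). The largest rise was that of the liver-type fatty acid binding protein FABP1, from at most 0.0639 CPM in controls to at most 1.17 CPM after CPB (3.69 ± 1.12, edgeR adjusted p = 0.0246), a level at which few reads decide the value.

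No member passed between CPB and control in lung or ileum. In lung, edgeR, DESeq2 and limma-voom called 0 of 37 members, where edgeR passed 4.71% of all genes, and 4 members had an unadjusted p under 0.05. Without CPB 21, the thiolase ACAA2 passed, at -0.53 (edgeR adjusted p = 0.0487). Lung PDK4 held 8.02, 52.8 and 106 CPM in controls and 15.6, 91.3 and 332 CPM after CPB (1.25 ± 0.58, edgeR adjusted p = 0.21). Of 83 other fatty acid metabolism genes in lung 2 fell, among them PECR, a peroxisomal enoyl-CoA reductase (-0.56 ± 0.16, edgeR adjusted p = 0.0491). In ileum, edgeR passed 0% of all genes, with 932 of 17869 at an unadjusted p under 0.05, and DESeq2 passed 16. The 3 tools called 0 of 37 members, and 4 members had an unadjusted p under 0.05. Of 8 macrophage markers in lung 5 fell, with sums of 4470 to 7330 CPM in controls and 2250 to 4770 CPM after CPB. Of 8 proximal tubule markers in lung 2 rose, and of 8 endothelial markers 1 rose and 2 fell. Smooth muscle sums in ileum ran from 488 to 21000 CPM within controls and from 1170 to 15000 CPM after CPB. The part of cell composition in the lack of calls was not tested.

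Taken over the organs, 17 of 37 members passed between CPB and control in at least 1. Of those tested in heart, liver and kidney, 16 of 35 members passed in at least 1 of these organs (45.7%), as did 46.9% of all genes, so the members' share was near that of all genes. VLDLR and CPT1B fell in heart, liver and kidney, and SLC25A20 fell in heart and kidney. Among the 35 members tested in all 3 organs, 2 fell in all 3 (5.71%), as did 0.883% of 13705 genes, and none rose in more than 1. The plot of fold changes by organ shows this pattern. The kidney call of CPT1B (edgeR adjusted p = 0.0403) was lost without the single libraries listed above and with no low-count filter (0.0637). The same animals supply the 3 organs, so these organs are not independent samples.

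**Figure D4:**
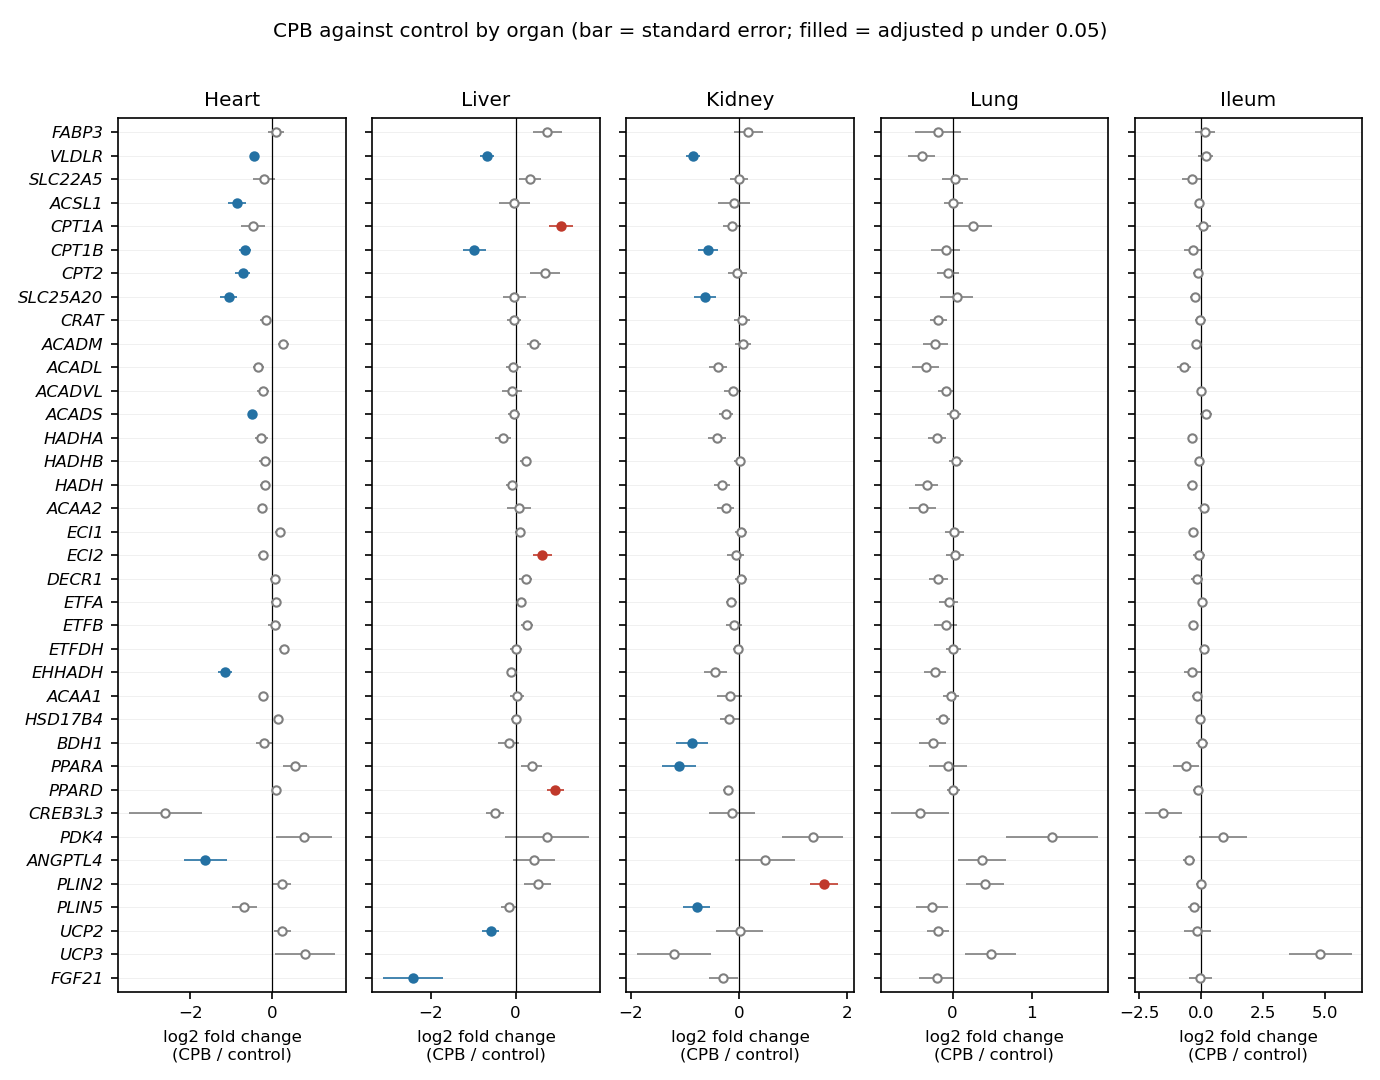
Log2 fold change of CPB over control for each of the 37 members (rows) in each of 5 organs (panels, each with its own axis), with bars for the standard error and filled points, red for higher and blue for lower, where the edgeR adjusted p was under 0.05. VLDLR and CPT1B are filled and left of 0 in heart, liver and kidney, and no point is filled in lung or ileum. The open ileum point for UCP3, at 4.82, rests on CPB 19.

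Whether the organs responded differently was tested directly, as the CPB effect in 1 organ minus that in another. Between heart and liver 5 of 37 members differed, all with the lower response in heart, where 5.27% of all genes differed and 2.85% had the lower response in heart. EHHADH differed by -1.02 ± 0.21 (edgeR adjusted p = 0.00282), CPT1A by -1.51 ± 0.43 (0.0319), PPARD by -0.82 ± 0.24 (0.0359), CPT2 by -1.40 ± 0.41 (0.0369) and ECI2 by -0.83 ± 0.25 (0.0463). With the animal as a replicate block, 5 members again passed, 3 of them the same (EHHADH, CPT1A and CPT2). PPARD (0.0733) and ECI2 (0.0798) were lost, while SLC25A20 (-1.14, edgeR adjusted p = 0.00685) and ANGPTL4 (-1.87, 0.0113) were gained. The count without the block was between 1 and 6 when 1 animal was left out, and was 1 without control 1 or control 26. EHHADH passed in every such fit.

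Between heart and kidney, PPARA differed by 1.67 ± 0.44 (edgeR adjusted p = 0.0198) and PLIN2 by -1.34 ± 0.36 (0.0204), 2 of 37 members, where 5.2% of all genes differed. With the animal block 5 members passed, the other 3 being CPT2 (-0.73, edgeR adjusted p = 0.00883), EHHADH (-0.73, 0.0319) and CREB3L3 (-2.69, 0.0253), the last near its detection limit in heart. Between liver and kidney, PPARD differed by 1.08 ± 0.24 (edgeR adjusted p = 0.00662), PPARA by 1.43 ± 0.40 (0.0326) and CPT1A by 1.15 ± 0.34 (0.0417), 3 of 37 members, where 4.97% of all genes differed. With the block, PLIN2 passed as well (-1.09, edgeR adjusted p = 0.0329). The liver minus kidney calls were lost for PPARA and CPT1A in 2 of 5 alternatives, with no low-count filter and with all 95 libraries in the fit (adjusted p up to 0.0839 and 0.0621), while the heart minus kidney call for PPARA held in all 5. For VLDLR and CPT1B no difference between these organs passed. The difference between heart and liver was 0.26 ± 0.20 for VLDLR and 0.34 ± 0.29 for CPT1B.

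Linrodostat added to CPB changed no member past the threshold in any organ. By edgeR, DESeq2 and limma-voom, 0 members passed between linrodostat and CPB, where edgeR passed 0% of all genes in heart, kidney, lung and ileum and 0.772% in liver. At an unadjusted p under 0.05 there were 4 members in heart (11.1%, against 6.05% of all genes), 6 in liver (16.7% against 8.42%), 0 in kidney (0% against 4.66%), 2 in lung (5.41% against 2.59%) and 2 in ileum (5.41% against 9.18%). The lowest unadjusted p of these in heart was that of PLIN2, at -1.17 ± 0.31 (edgeR adjusted p = 0.58), with all 4 linrodostat hearts below all 7 CPB hearts, as for 0.396% of all genes in either direction. Among the other fatty acid metabolism genes, LPL passed in liver (2.74 ± 0.60, edgeR adjusted p = 0.0335), at 0.874 to 2.81 CPM with linrodostat and 0.0513 to 0.489 CPM with CPB alone, where 1.86% of all genes did not overlap between these arms. In the same comparison 4 of 7 enterocyte markers and 2 of 4 proximal tubule markers rose. The summed enterocyte markers overlapped, at 764 to 2380 CPM with linrodostat and 406 to 4850 CPM with CPB alone, CPB 2 the highest. CPB ilea held 1320 to 5800 CPM for the same list. The enterocyte and proximal tubule lists hold genes not confined to the named cells, such as MTTP and AQP1. Which liver cells carried these markers is not known here, and the part of the markers in the LPL difference was not tested.

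Against the same controls, the 2 bypass arms gave the following values for the members that passed with linrodostat. In heart EHHADH stood at -0.85 ± 0.21 (edgeR adjusted p = 0.0399) with linrodostat and at -1.15 ± 0.18 with CPB alone, 1 of 36 members against 2.04% of all genes. Its call with linrodostat was lost when 1 library was left out for controls 1, 4, 7, 13, 14 and 15 or linrodostat 12, 18, 20 and 24 (adjusted p 0.0511 to 0.118). In liver CPT1A stood at 1.27 ± 0.32 (edgeR adjusted p = 0.0101) and PPARD at 0.79 ± 0.25 (0.0274), against 1.07 and 0.94 with CPB alone. ACADL, the long-chain acyl-CoA dehydrogenase, stood at -0.69 ± 0.22 (edgeR adjusted p = 0.0344) with linrodostat, at 14.7, 11.3, 19 and 13.5 CPM where controls held 16 to 34.8 CPM and CPB livers 15.1 to 27.9 CPM. These 3 were the liver members that passed, 3 of 36 against 21.8% of all genes. The CPT1A call was lost without linrodostat 24 (0.0531), the PPARD call without linrodostat 12 or 20 (0.0571 to 0.13) and the ACADL call without controls 1, 7 or 15 or linrodostat 12, 18 or 24 (0.0532 to 0.11). Between these livers 5 of 8 macrophage markers fell (sums of 435 to 834 CPM in controls and 291 to 540 CPM with linrodostat), 4 of 7 enterocyte markers rose (210 to 2400 and 764 to 2380 CPM), 3 of 6 smooth muscle markers rose (170 to 383 and 201 to 922 CPM) and 2 of 4 proximal tubule markers rose. Of 8 hepatocyte markers 1 rose, and of 6 fat cell markers 1 rose and 1 fell. Which liver cells carried the enterocyte and proximal tubule markers is not known here. The part of all these markers in the members' changes was not tested.

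In kidney 5 of 37 members passed with linrodostat against controls, where 20% of all genes did. PLIN2 stood at 2.02 ± 0.28 (edgeR adjusted p = 8.49e-05), VLDLR at -1.04 ± 0.16 (0.000299), PLIN5 at -1.14 ± 0.31 (0.0143), PPARA at -1.27 ± 0.38 (0.0257) and CPT1B at -0.75 ± 0.23 (0.0293). With CPB alone the same genes stood at 1.57, -0.85, -0.78, -1.11 and -0.57. The comparisons share their control kidneys, so this likeness of values is not independent. Between linrodostat and control kidneys 3 of 8 macrophage markers fell (sums of 144 to 1210 CPM in controls and 103 to 251 CPM with linrodostat), as did 3 of 8 endothelial markers (564 to 1090 and 512 to 967 CPM) and 2 of 7 fat cell markers (56.9 to 297 and 56.9 to 70.4 CPM). Of 7 hepatocyte markers 2 rose (178 to 413 and 137 to 1100 CPM, linrodostat 12 the highest), as did 2 of 5 enterocyte markers (31.7 to 122 and 95.6 to 187 CPM) and 2 of 4 alveolar type 2 markers. Of 7 cardiomyocyte markers 1 fell. Which kidney cells carried the hepatocyte, enterocyte and alveolar type 2 markers is not known here. The part of all these markers in the members' changes was not tested. The calls were lost without linrodostat 12 or 18 for PLIN5 (0.052 to 0.0622), without linrodostat 12, 18 or 20 for PPARA (0.056 to 0.0907) and without linrodostat 18, 20 or 24 for CPT1B (0.0633 to 0.0968). In lung and ileum edgeR passed 0 members between linrodostat and controls, where 2.35% and 0.213% of all genes passed, with 6 and 4 members at an unadjusted p under 0.05. DESeq2 called 1 in each, ACAA2 in lung and PLIN5 in ileum.

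PDK4 varied more between animals than between arms, and it did so in several organs of the same animal. This gene was picked after its values were seen. Among controls, animal 7 had the highest PDK4 in heart (379 CPM), liver (144 CPM), kidney (101 CPM) and lung (106 CPM), and animal 15 the lowest in heart (8.15 CPM), kidney (10.5 CPM), lung (8.02 CPM) and ileum (0.427 CPM). Among CPB animals, animal 9 had 522 CPM in heart and 273 CPM in liver, while animal 25 had 52.5 and 3.39 CPM. Among linrodostat animals, animal 12 had 236 CPM in liver and 183 CPM in ileum, while animal 20 had 3.99 and 2.7 CPM.

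With the arm means of log2 CPM removed, heart and liver PDK4 correlated over 19 animals at Pearson r = 0.629 and Spearman rho = 0.646. These correlations are given as a description, with no test, because the gene was picked for this pattern. Without the 2 animals farthest from the median in heart, r was 0.727. Pearson r over the 10 organ pairs ran from 0.397 (liver and ileum) to 0.821 (liver and kidney). For heart and liver r was 0.421 within the 8 controls and 0.865 within the 7 CPB animals. Over the 10 pairs, the lowest r was -0.126 within controls (liver and ileum) and 0.242 within CPB animals (heart and ileum). The median over all genes shared by heart and liver was 0.135, and that of 35 members 0.173, with 20% of members and 11.6% of all genes above 0.5. PDK4 was not alone among the members: CPT1B (0.661), ANGPTL4 (0.65) and CRAT (0.648) had a higher r between heart and liver, and CPT2 (0.601) and SLC25A20 (0.557) a somewhat lower one. SLC25A20 had an r from 0.507 to 0.756 over the 10 organ pairs.

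**Figure D5:**
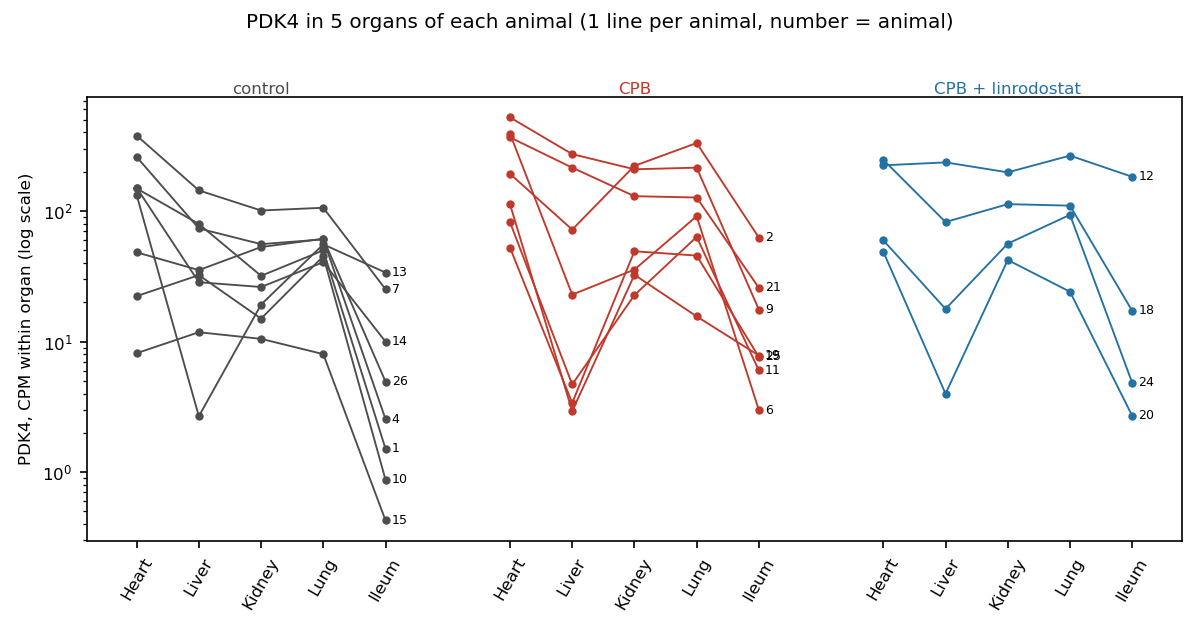
PDK4 in heart, liver, kidney, lung and ileum of each animal, in CPM scaled within an organ on a log axis, with 1 line per animal and the animal's number at its ileum point, in 3 blocks for 8 controls, 7 CPB and 4 linrodostat animals. Animals high in 1 organ tend to be high in most of the others, least so for liver and ileum. Control 15 lies lowest of the controls in heart, kidney, lung and ileum but not in liver. Control 7 lies highest in heart, liver, kidney and lung but not in ileum.

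The ileum of CPB 19 stood apart in UCP3 and in many other genes, and those named here were chosen after their values were seen. Its UCP3 level was 85.6 CPM, where the other 18 ilea held at most 1.35 CPM. The unadjusted difference of UCP3 between CPB and control ilea (4.82 ± 1.27, edgeR adjusted p = 0.575) rested on this library. ACADS stood at 218 CPM there, against 58.7 to 104 CPM in the other ilea. Of 37 members, 8 were higher in this ileum than in every other (21.6%), as were 11.2% of all genes. Lower than in every other were 2 of 37 members and 1719 of all 17869 genes. The ileum of control 7 also held the highest value of 8 members, with 3.62% of all genes, that of linrodostat 24 of 7 members, with 22.2% of all genes, and that of control 13 of 6, with 6.41%, so by this count CPB 19 was not alone. Of 87 other pathway genes, 13 were higher (14.9%) and 18 lower in the ileum of CPB 19 than in every other. Over all 17869 genes, 1997 were higher (11.2%) and 1719 lower. PPARG, the gamma member of the PPAR family, was at 87.5 CPM against at most 9.19 CPM elsewhere, and FABP1 at 1840 CPM against at most 313 CPM. The sum of fat cell markers there was 860 CPM, where control ilea held 263 to 824 CPM. That of enterocyte markers was 1720 CPM, where control ilea held 1930 to 6820 CPM. The ilea of CPB 6 (1320 CPM) and linrodostat 24 (944 CPM) lay lower still. The hepatocyte (56.5 CPM), proximal tubule (41.3 CPM) and alveolar type 2 (48.4 CPM) sums were the lowest of all ilea, with 415, 73.8 and 89 CPM the next. The cardiomyocyte sum (87.7 CPM) was the highest, with 44.4 CPM the next. The part of any of these in the values of this library was not tested.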

How the data were processed

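The authors deposited 1 table of expected counts per Ensembl gene, scaled neither for depth nor for length. Per the submitters' processing notes, bcl2fastq, Trim Galore, cutadapt, STAR, Salmon, MultiQC and the Sscrofa11.1 assembly were used. Which program made the counts is not given in the sources used here. Values were rounded (92.7 to 96.6% per library were whole). Positions are from RefSeq on Sscrofa11.1. The genes HADHB and HADHA lie 221 bases apart.

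The 19 libraries of an organ were fitted together with edgeR 4.0.16 under R 4.3.3, after filterByExpr on the arms and TMM scaling, with robust glmQLFit and 2-sided tests. DESeq2 1.42.0, limma-voom (limma 3.58.1), RLE size factors, no filter, sex as a covariate, 2 arms only and leaving out each library were alternatives. Organ effects were compared on the libraries of both organs. The animal numbers pair libraries because the labels give the same animal; same-animal libraries correlated at medians of 0.0887 to 0.196 over 10 organ pairs and 20321 genes. The edgeR step was tested on simulated data.

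The members and lists were chosen with earlier results of these data known. Named are passing members (up to 10 by fold change in heart and liver, 6 elsewhere), PDK4, CPT1A, CPT1B, ANGPTL4, FGF21, PPARA, PLIN2 and UCP3 in heart and liver, and the top 4 or 2 other pathway genes. CREB3L3, lung PDK4, lung ACAA2, CPT1B in kidney and the genes of the ileum of CPB 19 were added after their values were seen. No 2 libraries held the same values. The values of 1 other pathway gene are not reported here.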

Additional observations from a re-analysis of the deposited data

Results flagged for a closer look

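In 102 arms of 4 to 8 animals checked for a value far from the rest, 7 stood apart. Chance gives about 5% of such groups where values are normally distributed. The values checked were CPM without a log scale, and the groups share animals, so this rate need not hold here. In heart, SLC25A20 was 64.4 CPM in control 7, where the next control held 42 CPM. In kidney, BDH1 was 4.03 CPM in CPB 19, next to 13.8 CPM. In liver, CPT1A was 360 CPM in CPB 25 (next 231 CPM), VLDLR 12.6 CPM in control 1 (next 9.47 CPM) and ANGPTL4 166 CPM in control 7 (next 56.7 CPM). In ileum, UCP3 was 85.6 CPM in CPB 19 (next 1.35 CPM) and 0.104 CPM in linrodostat 20 (next 0.328 CPM).

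The CPB effect differed between organs, by edgeR's test of the difference in log2 units, for 10 pairings of a member with an organ pair. Heart minus liver gave -1.51 for CPT1A, -1.40 for CPT2, -0.83 for ECI2, -1.02 for EHHADH and -0.82 for PPARD. Heart minus kidney gave 1.67 for PPARA and -1.34 for PLIN2. Liver minus kidney gave 1.15 for CPT1A, 1.43 for PPARA and 1.08 for PPARD. This fit took the 2 organs of an animal as independent. With the animal as a replicate block, PPARD and ECI2 were lost for heart minus liver (edgeR adjusted p = 0.0733 and 0.0798). The block added SLC25A20 and ANGPTL4 for heart minus liver. It also added CPT2, EHHADH and CREB3L3 for heart minus kidney, and PLIN2 for liver minus kidney.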

How the results depend on the processing

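The count of members passing between CPB and control was 8 in heart (7 to 11 when 1 library was left out), 7 in liver (5 to 9), 7 in kidney (4 to 8, and 4 with no low-count filter), 0 in lung (0 to 1) and 0 in ileum (0 to 0). Between linrodostat and control it was 1 in heart (0 to 2, and 2 by DESeq2), 3 in liver (2 to 4, 5 with RLE size factors, 7 by DESeq2, 5 by limma-voom and 5 with only the 2 arms), 5 in kidney (3 to 7, and 9 by DESeq2), 0 in lung (0 to 0, 1 by DESeq2, 2 with only the 2 arms) and 0 in ileum (0 to 0, 1 by DESeq2). Between linrodostat and CPB it was 0 under every alternative run. For the difference of the CPB effect, heart minus liver gave 5 (1 to 6 when 1 animal was left out, 1 with no filter), heart minus kidney 2 (5 with the animal as a replicate block) and liver minus kidney 3 (1 with no filter). The block gave 27 members between control heart and liver, as without it, 26 of them shared. PDK4 in liver changed sign with limma-voom (-0.37). The cause of these changes was not tested. Depth limits FGF21 and CREB3L3 in heart, where CPB libraries hold few counts.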
